A study of Mus musculus with 9 samples.

Results

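The 51 genes described here carry out DNA replication or the step from the G1 phase of the cell cycle into S phase. They were matched by symbol from a list of gene names, and no threshold on a measured value entered the rule. All 51 were found among the 55487 genes of the count table, and all 51 passed the filter on low counts, so no member is missing from the tests. By role they comprise 6 subunits of the MCM helicase, 4 origin recognition and licensing factors, 6 factors that activate the helicase, 6 genes of the sliding clamp and its loader, and 8 subunits of the polymerases and primase. A further 5 act on single strands and Okazaki fragments, 4 supply deoxynucleotides, 4 are E2F transcription factors, 5 are G1/S cyclins and 3 are G1/S kinases.

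Each replication origin is marked by the origin recognition complex, on which Cdc6 and Cdt1 load the MCM helicase in G1. Cdc45 and the GINS complex then switch the helicase on at the start of S phase, and primase, the polymerases, the PCNA clamp and ligase copy the opened strands. Entry into S phase is driven by cyclin D with Cdk4 or Cdk6 and by cyclin E with Cdk2, which release E2F factors from the retinoblastoma protein, and many replication genes are E2F targets. CDK inhibitors of the INK4 and CIP/KIP families hold these kinases back.

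RNA was sequenced from cultured mouse cardiac endothelial cells of the MCEC line in 3 groups of 3 libraries. Zbtb46, a BTB zinc finger transcription factor, was not altered in 1 group (wild type, WT), knocked down in another (KD) and overexpressed in the other (OE). How the knockdown and the overexpression were made, and whether each came from 1 clone, is not given in the sources used here, and no library from cells with a control vector was analysed here. The labels do not say that libraries of a group came from separate cultures, so the p-values measure only the spread between these libraries, which may be technical. In bulk RNA a lower share of cells in S phase and less RNA per cell cannot be told apart.

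Libraries held between 39491828 and 55745849 counts, and 1 ribosomal RNA feature took 7.32% to 18.03% of them. Zbtb46 itself stood at 13.3, 14.4 and 13.2 CPM (counts relative to the TMM-scaled library size) in WT, at 11.7, 11.4 and 10.7 CPM in KD and at 192, 189 and 194 CPM in OE, so the KD libraries lay below the WT libraries by a narrow margin. Of 12 endothelial markers 5 passed the filter, and the defining markers Pecam1, Cdh5, Erg, Cldn5 and Emcn had at most 10 counts in any library, with Erg at 0 throughout. The summed level of the 5, led by Eng, ran over 142 to 153 CPM in WT, 121 to 128 CPM in KD and 105 to 114 CPM in OE. Single markers of the 5 differed. The log2 fold change in OE against WT was 0.35 for Flt1 and -1.99, -0.58 and -0.55 for Tek, Kdr and Eng. Esam stood at -0.42 (edgeR adjusted p 0.523). The 6 of 8 fibroblast and mural markers that passed, led by Col1a1, summed to 5119 to 5689 CPM in WT, 4853 to 4917 CPM in KD and 4042 to 4135 CPM in OE. Their log2 fold changes in OE against WT ran from -2.14 (Acta2) to -0.35 (Pdgfra), with Col1a1 at -0.38. Both sums moved with the groups, and their part in the results that follow was not tested. Of 7 leukocyte and 5 cardiomyocyte markers 2 each passed the filter, with sums of at most 5.58 and 1.58 CPM, and Ptprc and Myh6 had at most 3 counts in any library.

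Replication genes were well expressed in these cells. Per kilobase of exon, the median member stood at 15.2 RPKM in WT, against 3.62 RPKM over the tested genes, and 47 of the 51 lay above that median. By this level per length the helicase subunit Mcm3 led at 108 ± 1.36 RPKM (SD, n = 3), followed by the kinase Cdk4 at 106 ± 2.24 RPKM and the clamp Pcna at 88.7 ± 1.28 RPKM. The neighbours Mcm3 and Cdk4 in that order did not differ beyond their spread. At the other end E2f2 stood at 2.67 ± 0.133 RPKM, Ccnd1 at 2.82 ± 0.113 RPKM, Fen1 at 3.38 ± 0.322 RPKM and Gins3 at 3.50 ± 0.167 RPKM. Fen1 overlaps exons of Gm10143 and Tmem258 on the opposite strand. How reads of such overlaps were counted is not given in the sources used here, so its level may be affected.

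A change is called here where edgeR's quasi-likelihood test gave a Benjamini-Hochberg adjusted p under 0.05, adjusted over the 16955 genes tested. In KD against WT, 6 members rose and 7 fell, 25.5% of the 51, where 21.3% of all tested genes were called (11% higher and 10.4% lower). In OE against WT, 10 rose and 9 fell, 37.3% of the members beside 36.4% of all genes (17% higher and 19.5% lower). In OE against KD, 12 rose and 9 fell, 41.2% beside 41.5% (19.4% higher and 22.1% lower), and 26 members were called in the test over the 3 groups, where 47.7% of all genes were. These shares lie near those of all tested genes. For the 3 comparisons they lie below the shares of the 9259 genes with a mean CPM at or above that of the lowest member. Of those 30.6%, 50.4% and 55.7% were called, and the difference was not tested. The split between directions depended on scaling. Upper-quartile factors gave 15 higher and 7 lower in OE against WT and 24 higher and 7 lower in OE against KD. Library totals alone gave 5 higher and 9 lower, and 7 higher and 8 lower. Calls over all tested genes moved the same way. With upper-quartile factors 54.3% and 57.6% of them were higher, and with library totals 31.6% and 40.8%, beside 46.55% and 46.8% as reported. Library totals ended 7 calls in KD against WT, among them Rpa2 and Ccne2 (adjusted p 0.0608 and 0.208), and 5 in OE against WT. For OE against KD it ended 6, those of Mcm5, Orc6, Rfc2, Rfc5, Pola2 and Ccne2 (adjusted p 0.0523 to 0.222). The KD counts depended on single libraries, with 4, 3, 2 and 1 members lower without WT 1, KD 1, KD 2 and KD 3, and 3 higher without KD 2. The libraries of KD and WT did not overlap for 9 members that were higher and 11 that were lower in KD, where 34.7% of all tested genes did not overlap (17.6% higher and 17% lower). For OE and WT these were 17 higher and 11 lower (45.1%, 21.7% and 23.5% of all genes), and for OE and KD 22 higher and 15 lower (55.4%, 27.2% and 28.2%). At an unadjusted p under 0.05 the member counts were 17, 25 and 26, in the same order of comparisons, beside 31.9%, 43.9% and 47.8% of all tested genes. The calls that held under all 19 alternative settings other than a minimum fold change were Rrm1, Ccnd2 and Cdk6 in KD against WT, and Mcm2, Orc1, Cdc6, Mcm10, Tk1, Ccnd1 and Ccnd2 in OE against WT. In OE against KD they were Mcm10, Cdc45, Rrm1, Tk1, Ccne1, Ccnd1, Ccnd2 and Cdk6.

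The members' changes were small. Their median absolute log2 fold change was 0.069, 0.090 and 0.11 for KD against WT, OE against WT and OE against KD. Over all tested genes it was 0.16, 0.22 and 0.25, and over the 9259 genes with a mean CPM at or above that of the lowest member it was 0.12, 0.17 and 0.19, of which 30.6%, 50.4% and 55.7% were called. The signed medians of the members were -0.0039, 0.025 and 0.033, beside medians of -0.0022, 0.0020 and 0.011 over all tested genes. No member moved by 0.5 or more on the log2 scale in KD against WT, 3 did in OE against WT (Orc1, Ccnd1 and Ccnd2) and 4 did in OE against KD (Ccnd2, Rpa2, Ccnd1 and Orc1). Only Ccnd2 in OE against KD changed by 2-fold.

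**Figure D1:**
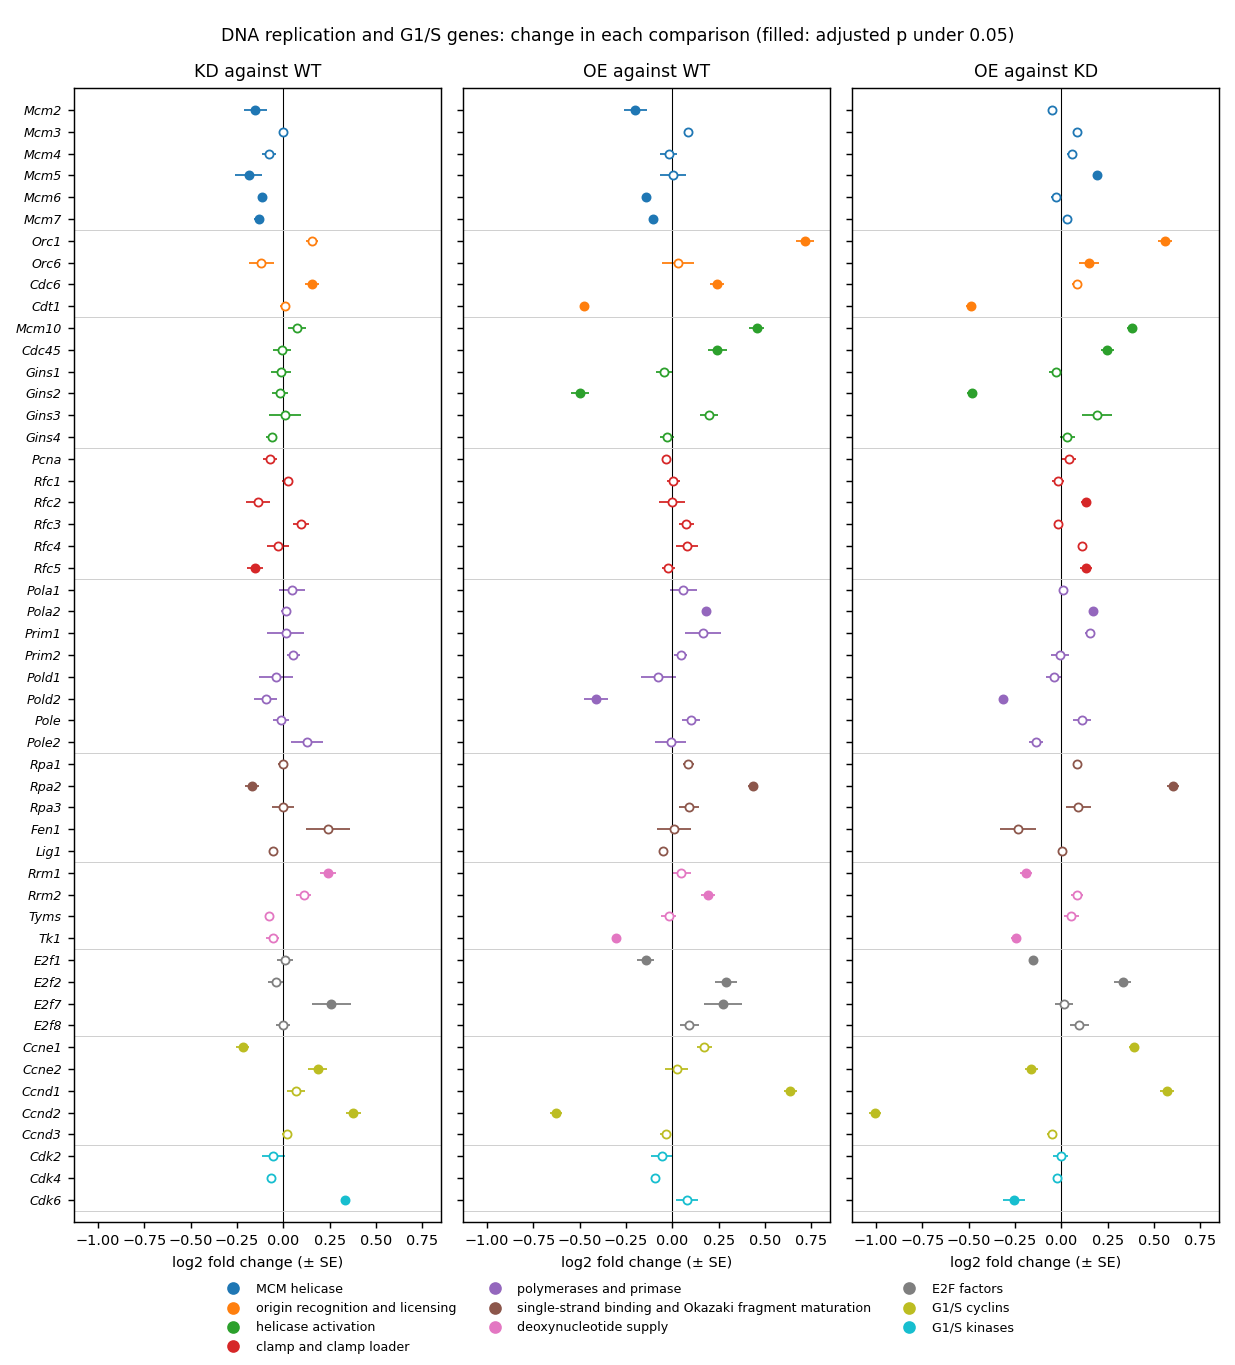
Log2 fold change of each of the 51 members (points) with its standard error (lines) in KD against WT, OE against WT and OE against KD, coloured by role; filled points have an adjusted p under 0.05. Most points lie within 0.25 of 0, and Ccnd2 lies to the right in KD against WT and farthest to the left in both comparisons of OE.

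Both WT comparisons use the same 3 WT libraries, so their results are not independent of each other. Of the 51 members, 25 were called against WT in KD, in OE or in both, and 7 in both, where 44.7% and 13% of all tested genes were. Mcm2, Mcm6 and Mcm7 were lower in both, Cdc6 and E2f7 were higher in both, Rpa2 fell in KD but rose in OE, and Ccnd2 rose in KD but fell in OE. For 24 members edgeR gave no call in any comparison, as for 47.9% of all tested genes, among them Pcna, all 3 of Rfc1, Rfc3 and Rfc4, both primase subunits, Fen1, Lig1, Tyms, E2f8, Ccnd3, Cdk2 and Cdk4. Of these 24, DESeq2 and limma-voom called Prim1 and Cdk4 in OE against WT and Mcm3 in OE against KD, and DESeq2 also called Mcm3 in OE against WT (adjusted p from 0.0404 to 0.0493).

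The D-type cyclins bind Cdk4 and Cdk6 in response to growth signals, and the 3 genes went separate ways: Ccnd2 rose in KD and fell in OE, Ccnd1 rose in OE and Ccnd3 was not called. Ccnd2 (chr6:127125162-127152193, minus strand, GRCm38) had the smallest p of all members in the test over the 3 groups (edgeR adjusted p 4.99e-13). It stood at 120.4, 127 and 120.2 CPM in WT, 154, 164 and 161 CPM in KD and 80.99, 78.9 and 78.1 CPM in OE. The KD libraries all lay above WT and the OE libraries all lay below WT, with no overlap between any pair of groups. Ccnd2 was 29.99% higher in KD (log2 fold change 0.38, SE 0.038, edgeR adjusted p 1.91e-06) and 35.3% lower in OE (-0.63, SE 0.031, adjusted p 3.63e-10). From KD to OE it fell by 1.01 on the log2 scale (SE 0.032, edgeR adjusted p 1.32e-13).

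Ccnd1 (chr7:144929931-144939925, minus strand) moved the other way in OE. Its libraries read 13.4, 12.7 and 13.7 CPM in WT, 14.6, 13.7 and 13.4 CPM in KD and 20.4, 20.8 and 20.7 CPM in OE. WT and KD overlapped, and every OE library lay above both. The rise in OE was 55.6% against WT (log2 fold change 0.64, SE 0.034, adjusted p 6.99e-07 in edgeR) and 48.3% against KD (log2 fold change 0.57, SE 0.038, adjusted p 2.09e-06). Ccnd3, the remaining D-type cyclin, was at 122 ± 3.005 CPM in WT, 124 ± 1.95 CPM in KD and 119 ± 3.11 CPM in OE (SD, n = 3), with edgeR adjusted p of 0.827, 0.570 and 0.342 in the 3 comparisons.

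Per kilobase of exon, Ccnd3 was the highest of the D-type cyclins in WT and OE and Ccnd2 in KD. In WT, Ccnd3 at 13.9 ± 0.342 RPKM and Ccnd2 at 13.03 ± 0.419 RPKM lay well above Ccnd1 at 2.82 ± 0.113 RPKM. In KD, Ccnd2 at 16.9 ± 0.556 RPKM lay above Ccnd3 at 14.1 ± 0.222 RPKM. In OE, Ccnd2 at 8.43 ± 0.157 RPKM lay below Ccnd3 at 13.6 ± 0.354 RPKM, while Ccnd1 reached 4.38 ± 0.0417 RPKM and remained the lowest of the 3. All 3 genes overlap an exon of a gene on the opposite strand in GENCODE M21 (LTO1 for Ccnd1, 9330179D12Rik and Gm43126 for Ccnd2, Bysl for Ccnd3). The use of strand in counting is not given in the sources used here, so reads of such pairs cannot be told apart.

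Cyclin E, the partner of Cdk2, is encoded by a gene pair whose changes had opposite signs in KD. Ccne1 stood at 18.8, 19.998 and 20.3 CPM in WT, 16.8, 17.2 and 16.7 CPM in KD and 21.8, 22.9 and 21.9 CPM in OE, with the 3 groups in separate ranges. It was 14.2% lower in KD than in WT (log2 fold change -0.22, SE 0.035, adjusted p 0.0247 in edgeR) and 31.3% higher in OE than in KD (log2 fold change 0.39, SE 0.027, adjusted p 7.12e-05). In OE against WT its log2 fold change was 0.17 (SE 0.040) with an edgeR adjusted p of 0.0509. Ccne2 stood at 38.9, 41.5 and 36.6 CPM in WT, 44.5, 44.4 and 44.2 CPM in KD and 38.3, 39.2 and 41.5 CPM in OE. Only its KD libraries formed a separate range, above all the others, and the rise over WT was 13.7% (log2 fold change 0.19, SE 0.052, adjusted p 0.0250 in edgeR). The fall of Ccne2 from KD to OE was -0.16 (SE 0.034) on the log2 scale, with an edgeR adjusted p of 0.0294. In KD against WT both calls were lost when WT 3 or any KD library was left out, with adjusted p up to 0.0867 for Ccne1 and 0.0862 for Ccne2, and that of Ccne2 also without WT 1. The OE against KD call of Ccne2 was lost without any KD library, OE 1 or OE 2, with adjusted p up to 0.126.

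Of the 3 kinases, Cdk6 was called in KD against WT and in OE against KD, and edgeR called none in OE against WT, where DESeq2 and limma-voom called 1 and 1 had an unadjusted p under 0.05. Over all tested genes edgeR called 21.3%, 41.5% and 36.4% in these comparisons, in the same order. Cdk6 (chr5:3341485-3531008, plus strand) read 124, 129 and 124 CPM in WT, 158, 159 and 159.6 CPM in KD and 127, 128 and 144 CPM in OE. The KD libraries lay above every WT and OE library. It was 26.04% higher in KD than in WT (log2 fold change 0.33, SE 0.021, adjusted p 2.72e-05 in edgeR) and 16.2% lower in OE than in KD (log2 fold change -0.26, SE 0.058, adjusted p 0.000151). Its paralogue Cdk4 was at 345 ± 7.27 CPM in WT, 329 ± 0.790 CPM in KD and 324 ± 3.45 CPM in OE (SD, n = 3), and the edgeR adjusted p in OE against WT was 0.0593. Cdk2 had log2 fold changes from -0.057 to -0.0026 and edgeR adjusted p of at least 0.449.

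**Figure D2:**
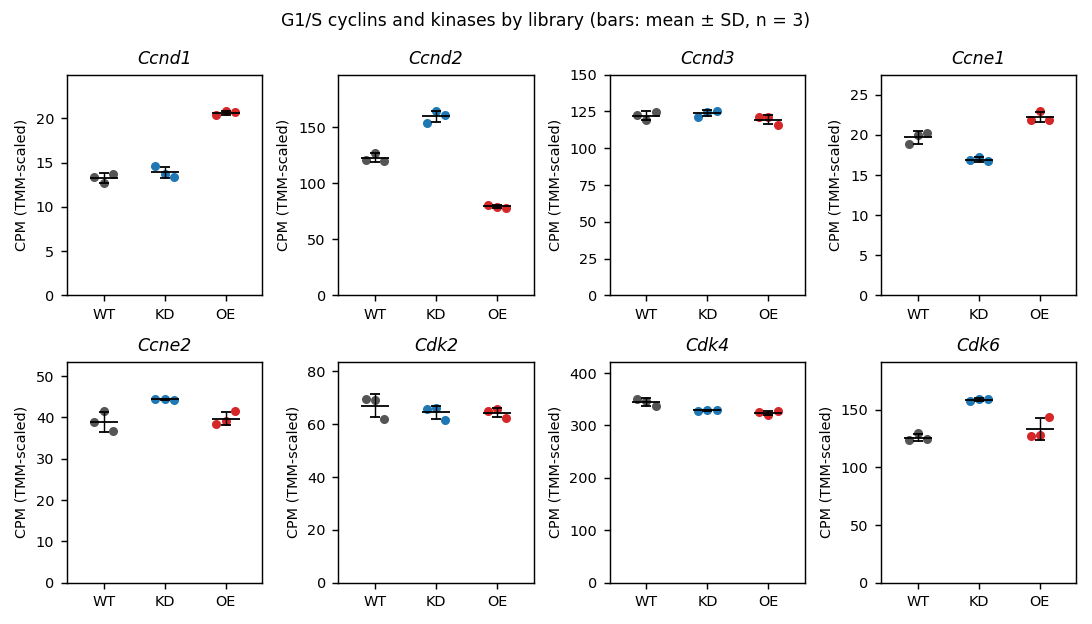
TMM-scaled CPM of the 5 G1/S cyclins and 3 G1/S kinases in each library (points) of WT, KD and OE, with mean and SD (bars, n = 3). Ccnd2 falls into 3 separate ranges with KD highest and OE lowest, Ccnd1 is raised in OE, Cdk6 is raised in KD, and Ccnd3, Cdk2 and Cdk4 stay within narrow ranges.

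The genes whose log2 CPM most resembled Ccnd2 over the 9 libraries were Slc16a1, Zdhhc3, Serpinb6b, Tmod3 and Upk1b, with Pearson correlations from 0.998 to 0.996 over 9 libraries in 3 groups. This describes the shape of the group means and carries no p.

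CDK inhibitors, which are not among the 51, are read here beside the kinases they bind. Of 7 listed, Cdkn1c had 0 counts in every library and 6 were tested, of which 1 rose and 3 fell in KD against WT and 2 rose and 1 fell in OE against WT. Over all tested genes 11% were higher and 10.4% lower in KD, and 17% and 19.5% in OE. Cdkn2c, an INK4 inhibitor of Cdk4 and Cdk6, stood at 84.02, 83.5 and 81.1 CPM in WT, 52.5, 60.3 and 58.6 CPM in KD and 118, 118 and 121 CPM in OE. Its groups did not overlap, and it was lower in KD (log2 fold change -0.54, SE 0.063, edgeR adjusted p 1.61e-07) and higher in OE (0.52, SE 0.021, adjusted p 4.12e-08). Cdkn2a, the INK4a and ARF locus, read 127, 114 and 140.2 CPM in WT, 86.4, 84.2 and 93.3 CPM in KD and 156, 157 and 167 CPM in OE and was likewise lower in KD (-0.53, SE 0.096, edgeR adjusted p 1.07e-05) and higher in OE (0.33, SE 0.091, adjusted p 0.000366). From KD to OE the 2 genes rose by 1.06 and 0.86 on the log2 scale.

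Cdkn1a, encoding p21, stood at 12.4, 13.5 and 12.1 CPM in WT, 9.02, 8.72 and 7.54 CPM in KD and 11.4, 12.3 and 12.002 CPM in OE. It was lower in KD (log2 fold change -0.59, SE 0.091, adjusted p 9.97e-05 in edgeR) while WT and OE overlapped. Cdkn2d was lower in OE (log2 fold change -0.40, SE 0.065, adjusted p 2.34e-05 in edgeR), and Cdkn1b, encoding p27, was higher in KD by 0.17 (SE 0.086) with an edgeR adjusted p of 0.0343. That last call was lost when WT 3 or any of KD 2, KD 3, OE 1 and OE 2 was left out, with adjusted p from 0.0503 to 0.136, and with upper-quartile factors. Cdkn2b had log2 fold changes of -0.11 and -0.11 against WT, with edgeR adjusted p of 0.220 and 0.141.

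**Figure D3:**
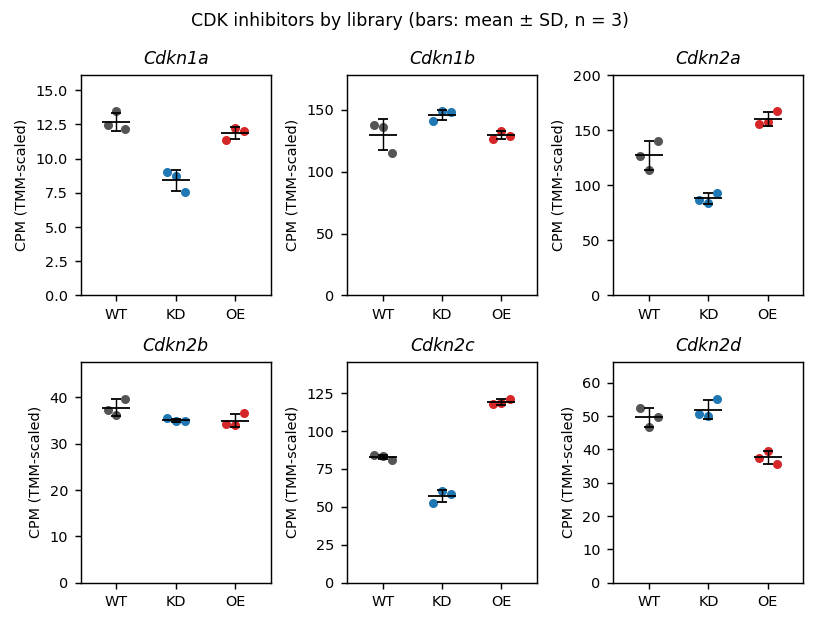
TMM-scaled CPM of the 6 tested CDK inhibitor genes in each library (points) of WT, KD and OE, with mean and SD (bars, n = 3). Cdkn2a and Cdkn2c are lowest in KD and highest in OE, Cdkn1a is lowest in KD, and Cdkn2d is lowest in OE.

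The MCM genes encode the hexameric helicase that unwinds origins. In KD, 4 of the 6 fell against WT, and in OE 3 of the 6 fell, where 10.4% and 19.5% of all tested genes fell. The summed level of the 6 ran over 1835 to 1937 CPM in WT, 1745 to 1753 CPM in KD and 1790 to 1830 CPM in OE, without overlap between WT and either other group. Mcm5 read 248, 245 and 284 CPM in WT, 231, 226 and 224 CPM in KD and 262, 259 and 258 CPM in OE, below WT in every KD library and within the WT range in OE. It was 12.2% lower in KD than in WT (log2 fold change -0.19, SE 0.070, adjusted p 0.00772 in edgeR) and 14.2% higher in OE than in KD (log2 fold change 0.19, SE 0.014, adjusted p 0.00302). Mcm2 read 417, 417 and 472 CPM in WT, 386, 397 and 393 CPM in KD and 385, 371 and 381 CPM in OE, with both KD and OE below WT. Its log2 fold change was -0.15 (SE 0.060) in KD (edgeR adjusted p 0.0206) and -0.20 (SE 0.061) in OE (adjusted p 0.00141).

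Mcm6 and Mcm7 fell by less. Their log2 fold changes in KD were -0.11 (SE 0.019) and -0.13 (SE 0.024), with edgeR adjusted p of 0.0451 and 0.0160, and in OE -0.14 (SE 0.023) and -0.10 (SE 0.025), with 0.00728 and 0.0413. Mcm3 and Mcm4 were not called by edgeR in either, with log2 fold changes between -0.077 and 0.086 against WT. Single libraries decided several of these calls. In KD against WT that of Mcm2 was lost without WT 3, KD 1, KD 2 or KD 3 (adjusted p 0.0607 to 0.0956), that of Mcm6 without any library other than WT 3 (0.0523 to 0.192) and that of Mcm7 without WT 1, KD 2 or KD 3 (0.0539 to 0.069). In OE against WT the call of Mcm6 was lost without OE 1 (0.0565) and that of Mcm7 without WT 1, KD 2, KD 3 or any OE library (0.0571 to 0.139). The third WT library was the highest of all 9 for both Mcm2 and Mcm5. Scaling by library totals alone also lost the KD calls of Mcm2, Mcm6 and Mcm7 (adjusted p 0.0566, 0.122 and 0.0651), and DESeq2 or upper-quartile factors lost the OE call of Mcm7 (0.0539 and 0.184).

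By edgeR's calls licensing factors diverged in OE. Orc1 (chr4:108579423-108614833, plus strand), the subunit of the origin recognition complex that is regulated through the cell cycle, read 14.4, 14.96 and 13.9 CPM in WT, 16.4, 15.9 and 15.9 CPM in KD and 24.5, 23.97 and 22.6 CPM in OE. All OE libraries lay above all KD libraries, which lay above all WT libraries. Orc1 was 64.3% higher in OE than in WT (log2 fold change 0.72, SE 0.047, adjusted p 6.91e-08 in edgeR) and 47.5% higher in OE than in KD (log2 fold change 0.56, SE 0.038, adjusted p 1.27e-06), while in KD against WT the log2 fold change was 0.16 (SE 0.034) with an edgeR adjusted p of 0.141. Cdt1 (chr8:122568015-122573554, plus strand), which brings MCM to the origin, went down instead. It read 192, 192 and 198 CPM in WT, 195, 190.5 and 201 CPM in KD and 141, 139.5 and 138 CPM in OE, so that WT and KD overlapped and OE lay below both. In OE it fell by 28.3% against WT (log2 fold change -0.48, SE 0.016, adjusted p 4.92e-09 in edgeR) and fell by 28.8% against KD (log2 fold change -0.49, SE 0.024, adjusted p 2.09e-09).

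Cdc6, which loads MCM together with Cdt1, was higher in KD by 0.16 (SE 0.039) and in OE by 0.24 (SE 0.036) on the log2 scale, with edgeR adjusted p of 0.0201 and 0.000298. Its call in KD was lost without WT 3 (adjusted p 0.0533) or KD 2 (0.119), and with upper-quartile factors or library totals. Orc6 was higher in OE than in KD by 0.15 (SE 0.055) (edgeR adjusted p 0.0490), a call that was lost without any 1 of KD 1, KD 2, KD 3, OE 1 and OE 3, with adjusted p from 0.092 to 0.203.

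Among the factors that switch the helicase on, 2 rose and 1 fell in OE against WT and none of the 6 was called in KD against WT by edgeR, DESeq2 or limma-voom, nor had any an unadjusted p under 0.05. Over all tested genes edgeR called 36.4% in OE against WT and 21.3% in KD against WT. Mcm10 (chr2:4989714-5012791, minus strand), which helps to activate the loaded helicase, read 58.03, 63.2 and 58.4 CPM in WT, 60.8, 64.6 and 63.8 CPM in KD and 82.9, 81.7 and 81.9 CPM in OE. Every OE library lay above every other, and the rise was 37.1% against WT (log2 fold change 0.46, SE 0.041, adjusted p 2.18e-07 in edgeR) and 30.4% against KD (log2 fold change 0.38, SE 0.027, adjusted p 1.50e-06). Cdc45, a component of the active helicase, was 18.3% higher in OE than in WT (log2 fold change 0.24, SE 0.053, adjusted p 0.000824 in edgeR), a call lost with library totals alone (0.0587). Gins2 (chr8:120578633-120589304, minus strand), a subunit of the GINS complex, read 57.9, 55.4 and 61.3 CPM in WT, 57.9, 56.8 and 57.5 CPM in KD and 39.9, 41.2 and 42.4 CPM in OE. It was 29.2% lower in OE than in WT (log2 fold change -0.50, SE 0.049, adjusted p 1.57e-07 in edgeR) and 28.3% lower than in KD (log2 fold change -0.48, SE 0.026, adjusted p 1.73e-07). WT and KD overlapped, and OE lay below both. Of the other GINS subunits, Gins1, Gins3 and Gins4 had log2 fold changes of -0.044, 0.20 and -0.029 in OE against WT, with edgeR adjusted p of 0.684, 0.114 and 0.702.

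None of the 6 clamp and clamp loader genes was called in OE against WT by edgeR, DESeq2 or limma-voom, with 0 at an unadjusted p under 0.05, and 1 was called in KD against WT. Of all tested genes edgeR called 36.4% and 21.3% in these comparisons. Pcna, the sliding clamp, was at 213 ± 3.06 CPM in WT, 202 ± 8.79 CPM in KD and 208 ± 3.32 CPM in OE (SD, n = 3), with edgeR adjusted p of 0.228, 0.603 and 0.445. Of the 5 loader subunits, Rfc5 read 107, 99.7 and 101 CPM in WT, 88.9, 95.6 and 93.1 CPM in KD and 99.7, 102 and 102 CPM in OE. Its KD libraries lay below all the others, with log2 fold changes of -0.15 (SE 0.045) in KD against WT (edgeR adjusted p 0.0196) and 0.13 (SE 0.033) in OE against KD (adjusted p 0.0244). The first of these calls was lost without WT 1, KD 1 or KD 3 (adjusted p 0.0607 to 0.12), the second without KD 1, KD 3, OE 2 or OE 3 (0.06 to 0.171). Rfc2 was higher in OE than in KD by 0.13 (SE 0.027) (edgeR adjusted p 0.0409) and lost that call without any KD library, OE 1 or OE 2 (0.0973 to 0.152).

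Of the 8 polymerase and primase genes, 1 rose and 1 fell in OE against WT, and none was called in KD against WT by edgeR, DESeq2 or limma-voom, again with 0 at an unadjusted p under 0.05. The shares called by edgeR over all tested genes were 36.4% and 21.3%. Pola2, the regulatory subunit of polymerase alpha, was 13.6% higher in OE than in WT (log2 fold change 0.18, SE 0.026, adjusted p 0.00119 in edgeR), a call lost with library totals alone (0.173). Pold2 (chr11:5872180-5878292, minus strand), a subunit of polymerase delta, read 97.8, 98.7 and 112 CPM in WT, 97.2, 95.2 and 96.3 CPM in KD and 76.98, 77.2 and 77.7 CPM in OE. WT and KD overlapped and OE lay below both. It was 24.9% lower in OE than in WT (log2 fold change -0.41, SE 0.064, adjusted p 1.29e-06 in edgeR) and 19.7% lower than in KD (log2 fold change -0.32, SE 0.0093, adjusted p 2.72e-05). The catalytic subunit of the same polymerase, Pold1, had a log2 fold change of -0.076 (SE 0.093) in OE against WT and an edgeR adjusted p of 0.370.

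Replication protein A coats the single strands that the helicase opens, and only its middle subunit was called. Rpa2 (chr4:132768332-132778752, plus strand) read 44.4, 46.2 and 43.6 CPM in WT, 41.2, 38.2 and 40.01 CPM in KD and 59.9, 59.9 and 61.6 CPM in OE. The 3 groups did not overlap, with KD lowest and OE highest. It was 35.1% higher in OE than in WT (log2 fold change 0.43, SE 0.028, adjusted p 8.62e-07 in edgeR) and 51.8% higher than in KD (log2 fold change 0.60, SE 0.034, adjusted p 5.00e-09), and lower in KD than in WT (log2 fold change -0.17, SE 0.040, adjusted p 0.0243). The KD call was lost without WT 2, KD 2 or KD 3, with adjusted p from 0.0504 to 0.129. Rpa1 and Rpa3 had log2 fold changes of 0.086 and 0.090 in OE against WT, with edgeR adjusted p of 0.0938 and 0.405. Fen1, which trims Okazaki fragments, had the lowest mean CPM of the 51 and the widest standard error in KD against WT, with 0.24 (SE 0.12) in KD against WT and an edgeR adjusted p of 0.128.

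**Figure D4:**
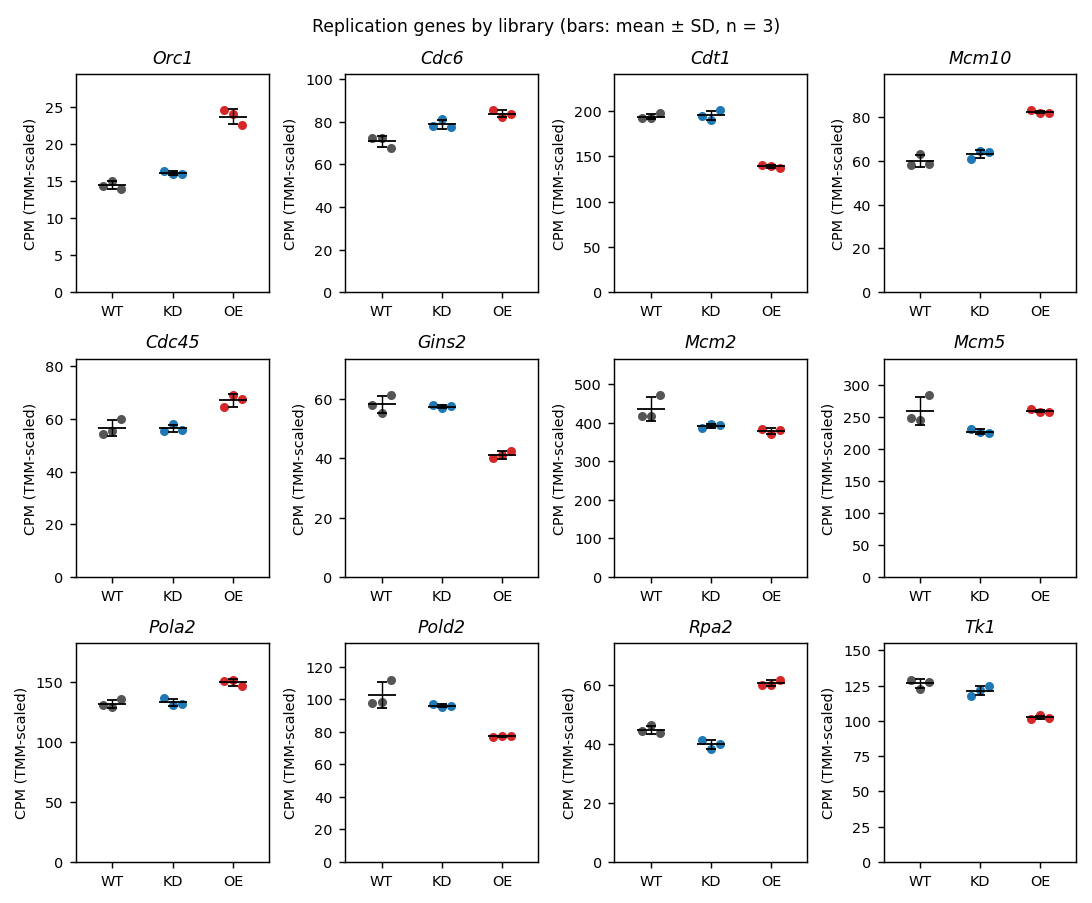
TMM-scaled CPM of 12 replication genes in each library (points) of WT, KD and OE, with mean and SD (bars, n = 3). Orc1, Mcm10 and Rpa2 are highest in OE, Cdt1, Gins2, Pold2 and Tk1 are lowest in OE, and Mcm5 is lowest in KD.

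Of the 4 genes of deoxynucleotide supply, Rrm1, the large subunit of ribonucleotide reductase, was higher in KD. It read 499.7, 528 and 479.7 CPM in WT, 585, 589 and 608 CPM in KD and 515, 505 and 540.4 CPM in OE, with the KD libraries above all others. The rise over WT was 18.2% (log2 fold change 0.24, SE 0.044, adjusted p 0.000267 in edgeR), and from KD to OE the log2 fold change was -0.19 (SE 0.034) (adjusted p 0.000897). Rrm2, the small subunit of the same enzyme, was 14.3% higher in OE than in WT (log2 fold change 0.19, SE 0.038, adjusted p 0.00153 in edgeR) and had a log2 fold change of 0.11 (SE 0.041) in KD, with an adjusted p of 0.0820. The OE call of Rrm2 was lost with library totals alone (0.152). Tk1, the thymidine salvage kinase, read 129, 123 and 128 CPM in WT, 118, 122 and 125 CPM in KD and 101, 104 and 102 CPM in OE. Its OE libraries lay below all others, and it was lower than in WT (log2 fold change -0.30, SE 0.024, adjusted p 6.95e-06 in edgeR) and 15.6% lower than in KD (log2 fold change -0.25, SE 0.026, adjusted p 6.65e-05). Tyms, thymidylate synthase, was not called, with log2 fold changes of -0.075 and -0.020 against WT.

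By edgeR's calls the E2F factors split in OE. The activator E2f1 fell by 9.46% from WT to OE (log2 fold change -0.14, SE 0.045, adjusted p 0.0215 in edgeR), a call lost without WT 1 or any OE library (adjusted p 0.0545 to 0.0922) and with upper-quartile factors. The activator E2f2 read 13.1, 12.4 and 13.7 CPM in WT, 12.4, 12.8 and 12.8 CPM in KD and 16.9, 15.5 and 15.4 CPM in OE. OE lay above both other groups, by 0.29 (SE 0.059) against WT (edgeR adjusted p 0.00654) and 0.33 (SE 0.044) against KD (adjusted p 0.00201). E2f7, an atypical E2F that represses E2F targets, read 45.7, 55.8 and 56.4 CPM in WT, 65.1, 64.4 and 59.8 CPM in KD and 63.8, 61.4 and 66.1 CPM in OE. Both KD and OE lay above WT, by 0.26 (SE 0.11) and 0.27 (SE 0.10) on the log2 scale (edgeR adjusted p 0.00917 and 0.00321), and the first WT library was the lowest. The KD call of E2f7 was lost without KD 1 (adjusted p 0.0522) or KD 2 (0.0504). Library totals alone lost the OE against WT calls of E2f2 and E2f7 (0.0699 and 0.0792) and the KD call of E2f7 (0.105). E2f8, the paralogue of E2f7, had log2 fold changes of -0.0039 and 0.092.

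Promoter windows were read for the members because many replication promoters hold E2F letters. RefSeq (GRCm38.p6) gave 48 windows of 300 bases, from 250 bases before to 50 after a start, for 41 of the 51 members. On either strand, the letters TTTCCCGC, TTTCGCGC, TTTGCCGC or TTTGGCGC occurred in 16 of 48 member windows (33.33%) and in 2.26% of 32851 windows of all genes. CCAAT occurred in 58.33% of member windows and 37.41% of all windows, and TTTGAA, the core of the cell cycle homology region, in 14.58% and 17.89%. In OE against WT the E2F letters were found in 4 of 9 members that rose, 3 of 7 that fell and 9 of 25 that were not called. The windows below are those of the 4 members in the RefSeq table with the smallest p over the 3 groups, and direction played no part in the choice. Capitals mark the E2F letters and CCAAT on either strand.
Cdt1, chr8:122567765-122568064, plus strand: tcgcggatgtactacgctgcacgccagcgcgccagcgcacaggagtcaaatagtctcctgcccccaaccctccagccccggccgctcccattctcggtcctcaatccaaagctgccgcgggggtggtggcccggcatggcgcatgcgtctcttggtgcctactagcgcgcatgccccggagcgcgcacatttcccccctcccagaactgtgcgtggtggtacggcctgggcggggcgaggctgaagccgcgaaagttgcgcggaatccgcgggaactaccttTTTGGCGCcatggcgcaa
Rpa2, chr4:132768110-132768409, plus strand: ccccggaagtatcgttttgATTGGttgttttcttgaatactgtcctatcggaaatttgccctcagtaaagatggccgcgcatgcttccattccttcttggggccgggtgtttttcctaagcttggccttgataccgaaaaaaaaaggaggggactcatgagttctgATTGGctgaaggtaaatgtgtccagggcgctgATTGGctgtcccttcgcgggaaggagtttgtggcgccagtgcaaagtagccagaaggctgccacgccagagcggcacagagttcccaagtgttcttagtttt
Orc1, chr4:108579204-108579503, plus strand: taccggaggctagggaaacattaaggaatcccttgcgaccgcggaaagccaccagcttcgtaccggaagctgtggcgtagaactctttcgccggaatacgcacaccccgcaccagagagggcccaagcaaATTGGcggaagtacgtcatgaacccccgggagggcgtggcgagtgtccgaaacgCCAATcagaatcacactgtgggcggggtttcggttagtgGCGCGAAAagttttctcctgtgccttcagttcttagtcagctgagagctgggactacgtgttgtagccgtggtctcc
Mcm10, chr2:5012742-5013041, minus strand: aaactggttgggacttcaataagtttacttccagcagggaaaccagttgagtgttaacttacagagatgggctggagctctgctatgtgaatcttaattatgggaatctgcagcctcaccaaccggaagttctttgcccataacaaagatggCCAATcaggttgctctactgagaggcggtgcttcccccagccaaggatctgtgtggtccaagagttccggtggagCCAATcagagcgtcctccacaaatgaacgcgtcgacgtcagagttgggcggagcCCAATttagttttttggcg

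Cdt1, which was lower in OE, and Orc1, which was higher, each hold 1 stretch of E2F letters, from 32 to 39 bases after the start in Cdt1 and at -27 to -20 from the start in Orc1. Rpa2 and Mcm10, both higher in OE, hold none of these letters within their windows and 3 CCAAT boxes each. The Mcm10 window ends in tttggcg, so it cannot show whether the letters TTTGGCGC are completed past its edge. Orc1 holds 2 CCAAT boxes and Cdt1 none.

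Position in the genome moved with several of these results. The tested genes were placed in 141 windows of 20 Mb with at least 10 genes, and the median log2 fold change of each window was taken. In KD against WT no window median lay beyond 0.2. In OE against WT, 5 windows lay above 0.2 and 9 below -0.2, and 6 members lay in them: Orc1, Rpa2 and E2f2 on chromosome 4, Cdt1 and Gins2 on chromosome 8 and Pold2 on chromosome 11. All 6 were called in OE against WT with the sign of their window, where 28.9% of the other 45 members were called. Over all genes 58.2% were called in such windows and 33.7% elsewhere.

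The window of Orc1 had a median of 0.36 in OE against WT, that of Rpa2 and E2f2 0.35, that of Cdt1 and Gins2 -0.44 and that of Pold2 -0.52. With each library's window median removed and the difference tested with limma, Orc1 remained higher in OE than in WT by 0.38 (adjusted p 0.000275). For Rpa2 the value became 0.10 (limma adjusted p 0.148), for Cdt1 -0.042 (0.465) and for Gins2 -0.061 (0.405). The sign turned for E2f2, to -0.043 (limma adjusted p 0.726), and for Pold2, to 0.089 (0.157). In OE against KD all 6 again lay in such windows. Orc1 became 0.078 (limma adjusted p 0.427), Rpa2 0.091 (0.188), Cdt1 -0.015 (0.803) and Gins2 -0.0066 (0.935). E2f2 turned to -0.18 (limma adjusted p 0.0722), and Pold2 was then called higher, at 0.13 (0.0301). The OE against KD calls of Orc6, Rfc2, E2f1 and Ccne2 were also lost (limma adjusted p 0.0766 to 0.303). Orc1, not called by edgeR in KD against WT, was called higher there after removal, at 0.30 (limma adjusted p 0.00443), from a window median of -0.14. In KD against WT the window of Rpa2 had a median of -0.18, and its removal left Rpa2 at 0.012 (limma adjusted p 0.917).

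Other members kept their calls without the window medians. Ccnd1 stood at 0.64 in OE against WT after removal (limma adjusted p 7.20e-07) in a window with a median of -0.0022. Ccnd2 stood at -0.58 in OE (limma adjusted p 2.25e-09) and 0.42 in KD (8.27e-07). Mcm10 kept 0.37, Tk1 -0.28, Cdc45 0.28, Pola2 0.21 and Mcm2 -0.20 in OE against WT, all called. In KD, Cdk6 kept 0.27 (limma adjusted p 0.00235) and Rrm1 0.22 (0.000651). Removal also ended the KD against WT calls of 6 further members. Of these Ccne2 went from 0.19 to 0.048 (limma adjusted p 0.610), Ccne1 from -0.22 to -0.16 (0.110) and E2f7 from 0.26 to 0.19 (0.0596). Mcm5 went from -0.19 to -0.12 (limma adjusted p 0.0594), Mcm6 from -0.11 to -0.10 (0.0806) and Mcm7 from -0.13 to -0.10 (0.0931). E2f1 in OE against WT went from -0.14 to -0.11 (0.0736). Copy number was not measured in these files, and the reason for the window shifts was not tested.

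**Figure D5:**
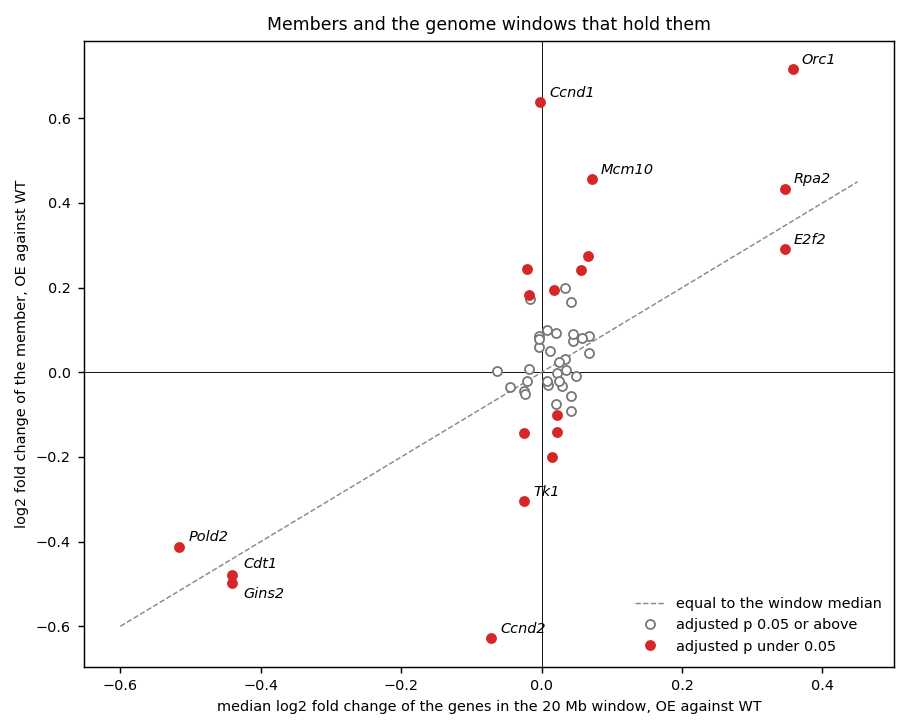
Log2 fold change of each member in OE against WT (vertical axis) against the median log2 fold change of the tested genes in its 20 Mb genome window (horizontal axis); filled points have an adjusted p under 0.05 and the dashed line marks equality. Orc1, Rpa2 and E2f2 at the right and Pold2, Cdt1 and Gins2 at the left lie in shifted windows, while Ccnd1, Ccnd2, Mcm10 and Tk1 lie in windows near 0.

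The CDK inhibitors carried the same overlap with position. Cdkn2a and Cdkn2c lie in windows of chromosome 4 with medians of 0.27 and 0.36 in OE against WT, and after removal they stood at 0.028 (limma adjusted p 0.810) and 0.19 (0.00655). Their falls in KD were -0.40 (0.000837) and -0.39 (8.72e-06) after removal, and that of Cdkn1a was -0.54 (0.000313). Cdkn2d stood at -0.014 in OE against WT (limma adjusted p 0.892), and Cdkn2b, not called before, stood at -0.42 (1.09e-05).

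Of 30 tested replication genes outside the 51, 16 rose and 1 fell in OE against WT (17% of all genes rose and 19.5% fell). In KD against WT 3 rose, where 11% of all genes rose and 10.4% fell. The median log2 fold change of these 30 was 0.17 in OE and 0.052 in KD, and whether the comparisons differ was not tested for the list. Clspn, a mediator of the replication checkpoint, was higher in OE by 0.50 (SE 0.057) (edgeR adjusted p 1.47e-07) and the helicase Recql4 by 0.38 (SE 0.057) (2.39e-05). The fork protein Tipin was lower by -0.44 (SE 0.052) (1.34e-06). In KD, the origin recognition subunit Orc2 was higher by 0.25 (SE 0.083) (edgeR adjusted p 0.00356) and the kinase activator Dbf4 by 0.21 (SE 0.076) (0.00488). The calls of Orc2 and Dbf4 were lost with library totals alone (adjusted p 0.0592 and 0.0781), and Orc2 stood at 0.084 with window medians removed (limma adjusted p 0.298). With window medians removed 16 of the 30 rose in OE. Clspn stood at 0.17 (limma adjusted p 0.0189), still called, and Tipin at -0.11 (0.166). Scaling by library totals alone left 9 of the 30 higher in OE and 0 higher in KD.

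Of 17 further genes of the Rb and E2F network, 7 rose in OE against WT and 3 rose in KD, the others not being called. Over all tested genes 17% rose and 19.5% fell in OE, and 11% rose and 10.4% fell in KD. Mybl2, an E2F target that activates mitotic genes, was higher in OE by 0.52 (SE 0.044) (edgeR adjusted p 3.07e-08) and at 0.55 with window medians removed. Lin54 was higher in KD by 0.36 (SE 0.053) (6.09e-05) and Myc by 0.21 (SE 0.039) (0.00613, lost with library totals alone at 0.145). Library totals alone left 2 of the 17 higher in OE and 1 in KD. Of 9 further genes of nucleotide supply, 4 rose and 1 fell in OE and 1 rose and 2 fell in KD, beside the same shares of all tested genes. Cmpk1, a kinase of pyrimidine nucleoside monophosphates, was higher in OE by 0.51 (SE 0.051) (edgeR adjusted p 8.04e-08), and at 0.17 with window medians removed (limma adjusted p 0.0143). Samhd1, which breaks down deoxynucleotides, was higher in KD by 0.21 (SE 0.053) (edgeR adjusted p 0.00161), a call lost with library totals alone (0.0880).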

How the data were processed

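RNA-seq was done on 9 libraries of MCEC, 3 a group. Poly-A RNA was taken from column-purified total RNA and its cDNA, primed with random hexamers, was read from both ends, per the labels' protocols. The table deposited by the authors holds raw counts per Ensembl gene and library, judged from its whole-number values; 0 columns belonged to other samples. Builds named in the submitters' processing notes are GRCm38 and mm10. The aligner, the counting program, its annotation and the use of strand are not given in the sources used here. In GENCODE M21 23 members overlap an exon of another gene, among them Orc1, Cdc45, Gins2, Fen1, Tk1 and Cdk6. The table has 55774 rows, and 168 genes on 455 rows with identical counts were counted once, which left 55487 genes; 55227 of them had a position in GENCODE M21, from which loci and exon lengths came.

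Counts were filtered with filterByExpr, scaled with TMM and fitted over all 9 libraries with group as the only term, using edgeR 4.0.16 in R 4.3.3. P-values come from the quasi-likelihood F-test of edgeR and were adjusted after Benjamini and Hochberg over the 16955 genes tested; calls are at an adjusted p under 0.05. Enumerating the exact permutations of 3 against 3 libraries allows no p below 0.1. Levels are TMM-scaled CPM, and standard errors come from the SDs of log2 CPM with a prior count of 2. Values of 1 library with few counts are limited by counting error. The biological coefficient of variation was 10.2% (WT), 3.81% (KD) and 4.72% (OE). For each gene the fit shared 1 estimate of spread over the 3 groups, although WT varied most, so p-values of the WT comparisons may be too small. limma 3.58.1 and DESeq2 1.42.0 served the alternatives, and tables and plots were made in Python 3.11.15 (matplotlib 3.10.9, numpy 2.4.6, pandas 2.3.3). The procedure was tested on simulated data with 50 genes changed in OE at each log2 size of 1, 0.5, 0.3 and 0.2. In OE against WT it called 98%, 68%, 48% and 16% of them in the right direction. Far fewer genes changed there than were called here, so these shares need not hold for the members. A missing call does not show that a member was unchanged.

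The members and gene lists were chosen with earlier results of these data known. Per-library values are given for the 5 largest rises and 5 largest falls among called members in each comparison; every member is accounted for by role. Of other lists, every CDK inhibitor and, per comparison, genes from the 2 smallest p in each direction are named. Alternatives were other scalings, filters, tests, samples in the fit, a replicate block, a minimum fold change of 1.5, removal of 20 Mb window medians (limma-trend on log2 CPM) and leaving out each library. Same-numbered libraries did not deviate together (correlations from -0.042 to 0.049), so no pairing was used. Promoter windows are from RefSeq. The result for 1 gene of nucleotide supply is not reported here.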

Additional observations from a re-analysis of the deposited data

How the results depend on the processing

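As each library was left out, the members called in the test over 3 groups ran from 23 to 30, those higher and lower in KD against WT from 3 to 7 and 1 to 6, in OE against WT from 10 to 11 and 6 to 11, and in OE against KD from 9 to 15 and 8 to 9. The KD counts moved most: 4, 3, 2 and 1 members were lower without WT 1, KD 1, KD 2 and KD 3, and 3 were higher without KD 2. Without these libraries 17.3%, 15.8%, 14.5% and 15.3% of all tested genes were called in KD against WT. Library totals alone gave 3 higher and 3 lower in KD against WT, 5 higher in OE against WT and 7 higher in OE against KD; the higher share of calls became 35.7% in OE against WT (52.6% as reported) and 46.7% in OE against KD (57.1%). Upper-quartile factors gave 24 higher in OE against KD, and shares of 68.2% and 77.4%. Over all tested genes the higher share of calls was 31.6% and 40.8% with library totals, and 54.3% and 57.6% with upper-quartile factors. Library totals called 14.6% of all genes in KD against WT. A fit of only the groups compared gave 5 higher and 4 lower in KD against WT, beside 18.4% of all genes called. It lost the KD calls of Mcm2, Mcm6, Cdc6 and Rpa2 (edgeR adjusted p 0.0515 to 0.0826). In OE against KD it called 26 members, beside 49.8% of all genes. A minimum fold change of 1.5 left 0 members higher and 0 lower against WT in KD and in OE, and 0 higher and 1 lower (Ccnd2) in OE against KD. At that minimum 1.62%, 4.68% and 7.85% of all tested genes were called in KD against WT, OE against WT and OE against KD. Removing window medians left 5 members higher and 2 lower in KD against WT, where 19.1% of all genes tested were called. It turned the sign of 14 values that had been called. In KD against WT these were Rpa2 at 0.012, Cdca8 at 0.021 and Ccnb1 at -0.030. In OE against WT they were Pold2 at 0.089, E2f2 at -0.043, Kif23 at 0.18, Ccnb2 at 0.057 and Ccnb1 at 0.059. In OE against KD they were Pold2 at 0.13, E2f2 at -0.18, Cdkn2d at 0.050, Kif23 at 0.047, Ccnb2 at 0.015 and Ccnb1 at 0.088. The cause was not tested. With the replicate number as a replicate block, 12, 19 and 20 members were called in KD against WT, OE against WT and OE against KD. As reported these were 13, 19 and 21, and the block called 21.1%, 36.0% and 41.1% of all genes. The numbers share no batch in the labels. DESeq2 called 13, 23 and 21 members, beside 22.5%, 37.0% and 41.7% of all tested genes. Members had between 310 (Fen1, WT 1) and 31435 (Rrm1, WT 2) counts in a library, and counting error is relatively wider at the lower end.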

Other observations

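Mitosis genes act in the phase that follows replication and its gap phase. Of 25 listed genes, 15 rose and 4 fell in OE against WT, and 7 rose and 1 fell in KD against WT, with median log2 fold changes of 0.17 and 0.084. Over all tested genes 17% were higher and 19.5% lower in OE, and 11% and 10.4% in KD. Cdc20, the activator of the anaphase-promoting complex, was higher in OE by 0.49 and Cdca8, a subunit of the chromosomal passenger complex, by 0.46 (edgeR adjusted p 5.71e-09 and 2.29e-08). Both lie in shifted windows of chromosome 4, with medians of 0.36 and 0.35. With window medians removed they stood at 0.15 and 0.13, still called (limma adjusted p 0.00587 and 0.029). Ccnb1 and Ccnb2, the B-type cyclins, were lower in OE by -0.20 and -0.27 on the log2 scale (edgeR adjusted p 0.000819 and 1.31e-05). With window medians removed they stood at 0.059 and 0.057 (limma adjusted p 0.316 and 0.307). In KD, Kif23 and Top2a were higher by 0.26 and 0.20 (edgeR adjusted p 0.000247 and 0.00324), and Cdca8 was lower by -0.16 (0.00963), a call lost without KD 3 (0.0665) and, at 0.021, with window medians removed. Of the 25, 5 lie in shifted 20 Mb windows in OE against WT, and with window medians removed 15 rose and 1 fell. Library totals alone left 6 higher in OE and 1 in KD, Top2a in KD among those lost (0.114).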
